A study of Mus musculus with 10 samples.

Results

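The D-type cyclins, their kinases CDK4 and CDK6 and the inhibitors of these kinases were followed in beta cells sorted from mouse pancreatic islets, with and without exposure of the islets to lipopolysaccharide (LPS). The 10 genes were listed by symbol (Ccnd1, Ccnd2, Ccnd3, Cdk4, Cdk6, Cdkn1a, Cdkn1b, Cdkn1c, Cdkn2a and Cdkn2c) and found by their Ensembl identifiers among the 56748 identifiers of the count tables, without use of any measured value. All 10 had counts, and 9 of them were among the 15942 genes that passed a filter on low counts; Cdkn2a did not.

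Islets came from male NOD mice, which develop autoimmune diabetes on their own, aged 6 to 8 weeks. They were either left untreated (5 libraries, numbered 1 to 5) or cultured for 48 hours with LPS at 50 ng/ml (5 libraries, numbered 6 to 10). LPS is a component of the outer membrane of Gram-negative bacteria and is sensed through Toll-like receptor 4. Islets were dispersed with trypsin after the culture, and beta cells were collected by flow cytometry for RNA sequencing. All libraries thus share strain, sex, dispersion and sorting. The 5 samples per group are described as independent, with no animal, pool or culture given for any of them, so p-values measure the spread between these libraries only. Whether untreated islets were cultured for the same time is not given in the sources used here.

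In textbook biology, the D cyclins bind CDK4 or CDK6 in the G1 phase and the complexes phosphorylate the retinoblastoma protein, which frees E2F transcription factors to start DNA synthesis. INK4 inhibitors (encoded by Cdkn2a, Cdkn2b, Cdkn2c and Cdkn2d) bind CDK4 and CDK6 directly, while CIP/KIP inhibitors (p21 from Cdkn1a, p27 from Cdkn1b, p57 from Cdkn1c) bind cyclin-kinase complexes more broadly. Adult beta cells divide rarely. Cyclin D2 and CDK4 are known to be needed for the growth of beta cell mass in mice after birth, and p16Ink4a accumulates in islets with age.

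Library totals ran from 18465188 to 27379892 counts assigned to genes. All 10 listed beta cell markers were present, with Ins2 at 70376 ± 6166 CPM without LPS and 61582 ± 8370 CPM with it (CPM, counts scaled by TMM-normalised library size; SD, n = 5 per group). Of the 10, 8 had log2 fold changes under 0 and 3 were called lower: the glucose transporter gene Slc2a2 (-0.86, edgeR adjusted p = 4.3e-05), the zinc transporter gene Slc30a8 (-0.59, 7.37e-05) and Ucn3 (-0.64, 0.00143). Transcripts of other islet cells were present as well, with the alpha cell hormone gene Gcg at 8931 ± 3393 and 6558 ± 1834 CPM and the delta cell hormone gene Sst at 7068 ± 825 and 6637 ± 1572 CPM. The summed level of 12 endothelial markers ran from 12.4 to 45.8 CPM in untreated and from 10.4 to 16.02 CPM in LPS libraries (two-sided exact permutation p = 0.0317, 0.106 adjusted over 10 marker lists). All 8 endothelial markers tested had log2 fold changes under 0, and 1 of them, Kdr, was called lower. The sum of 10 ductal markers, most of it from keratin genes and Epcam, ran from 1512 to 1861 and from 1833 to 2496 CPM (exact p = 0.0238, adjusted 0.106). Of these 10, 9 had log2 fold changes above 0, and Spp1 (0.97, edgeR adjusted p = 0.00404) and Muc1 (0.80, 0.00564) were called higher. The 2 pancreatic polypeptide cell markers summed to 1582 to 2988 and 954 to 2153 CPM (exact p = 0.0159, adjusted 0.106), and 1 of them, Ppy, was called lower (-0.99, edgeR adjusted p = 0.0473). Summed acinar, mesenchymal, macrophage, lymphocyte, alpha, delta and beta markers overlapped between the groups with adjusted exact p from 0.254 to 0.992. Of 13 macrophage markers 2 passed the filter on low counts, and 1 of them, Cd68, was called higher (0.68, edgeR adjusted p = 0.0141). The other, C1qa, had a log2 fold change under 0 and was not called (-0.35, adjusted p = 0.213). The leukocyte gene Ptprc had 0 counts in all libraries, as had the T cell genes Cd3e, Cd3d and Cd3g. In bulk samples, fewer cells of a type and less RNA per cell cannot be told apart.

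None of the 9 tested genes passed an adjusted p of 0.05 between LPS and untreated in edgeR's quasi-likelihood test, beside 3.77% of all tested genes that were called (2.84% higher and 0.928% lower in LPS). DESeq2 called none of them, nor did limma-voom, whether libraries were weighted by quality or not. Over all genes these fits called 2.93% (DESeq2), 3.64% (limma-voom) and 6.24% (limma-voom with quality weights). At an unadjusted p under 0.05 there were 2 genes in edgeR, Cdkn1b and Cdkn1c, beside 15.3% of all tested genes. In none of the 9 did the libraries of the groups separate completely, beside 5.71% of tested genes whose groups did not overlap (3.84% higher and 1.87% lower in LPS). Of the 9 log2 fold changes 7 were under 0 and 2 above 0, with a median of -0.13 beside -0.01 over all tested genes.

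**Figure D1:**
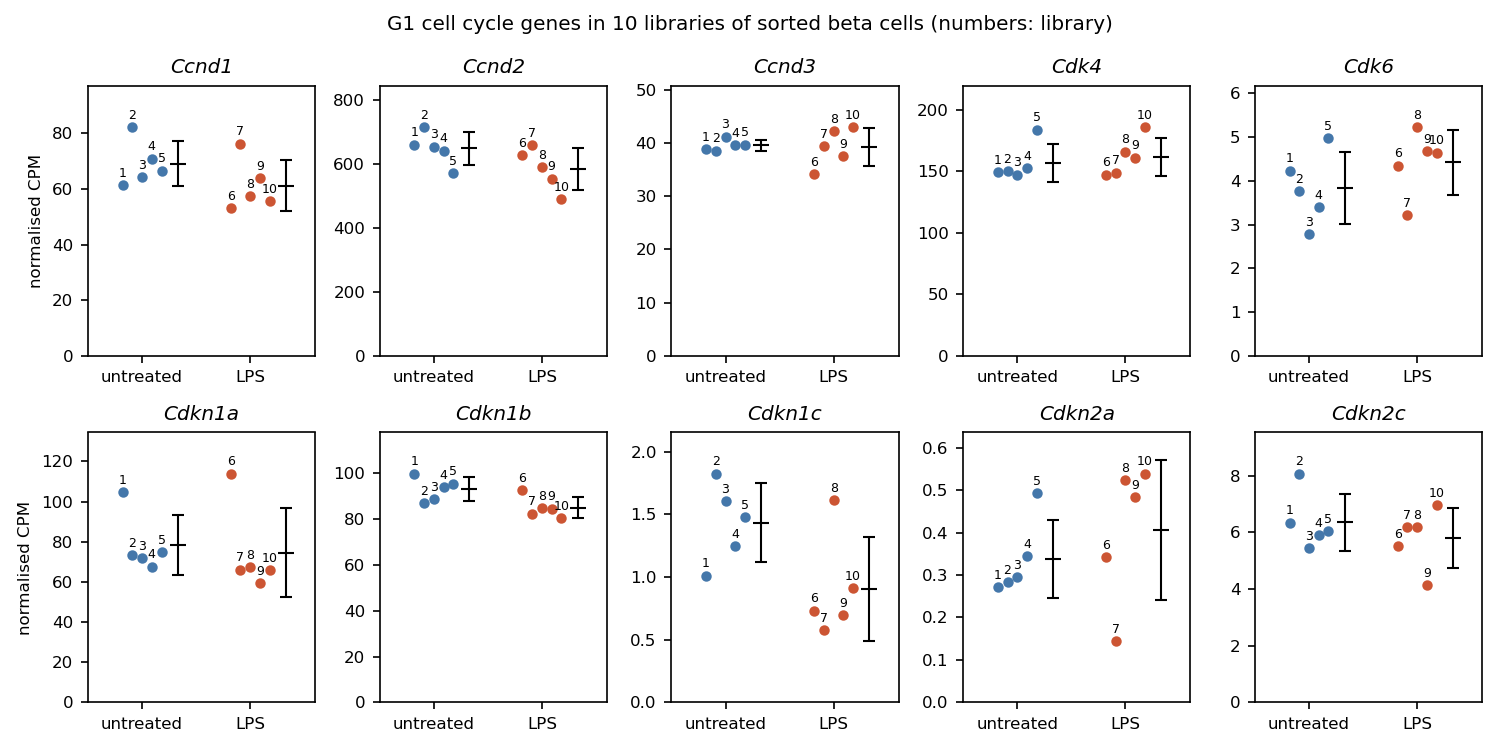
CPM, normalised counts (vertical axes, starting at 0) of the 10 genes in each library, untreated in blue and LPS in red, with the library number above each point and the mean with its SD (n = 5) beside each group. The groups overlap in every panel, and libraries 1 and 6 stand above the rest of their groups for Cdkn1a.

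Levels of different genes were compared per length, as CPM per kilobase of exon. Ccnd2 and Cdk4 were the most abundant of the 10, at 68.9 ± 5.51 and 48.2 ± 4.72 CPM per kilobase in untreated libraries (SD, n = 5), above 96.7% and 95.2% of the 15608 tested genes with a known exon length when averaged over all libraries. Cdkn1a (22.1 ± 4.17) and Cdkn1b (20.4 ± 1.15) followed, with overlapping libraries, and then Ccnd1 (14.7 ± 1.73). Ccnd3 (4.51 ± 0.117) and Cdkn2c (2.37 ± 0.375) stood lower, near or under the middle of all tested genes. Cdkn1c (0.703 ± 0.155), Cdkn2a (0.288 ± 0.0776) and Cdk6 (0.274 ± 0.0591) closed the order, and the last pair overlapped. All other neighbours in the untreated order were separated in every library.

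The LPS libraries gave the same order of means. There the libraries of Ccnd2 (62.0 ± 7.00 CPM per kilobase) and Cdk4 (49.8 ± 4.79) overlapped, as did those of Cdkn1a and Cdkn1b, and the libraries of Cdkn1c (0.445 ± 0.203), Cdkn2a (0.347 ± 0.141) and Cdk6 (0.316 ± 0.0532) overlapped from neighbour to neighbour. Exon lengths merge all annotated exons of a gene and can exceed the length of any single transcript (8775 bases for Ccnd3). They also come from an annotation of another genome build than the counts. These levels and their order are therefore approximate between genes.

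**Figure D2:**
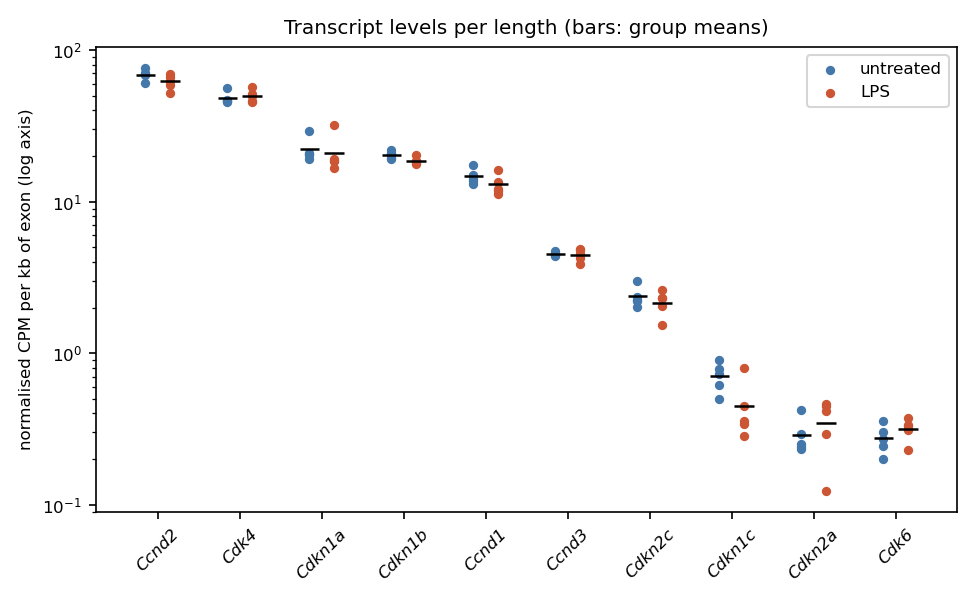
Level of each gene as CPM per kilobase of exon (log axis) in untreated (blue) and LPS (red) libraries, ordered by the untreated mean, with group means as bars. Ccnd2 and Cdk4 lead in both groups, and Cdk6 lies at the bottom beside Cdkn2a.

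Ccnd2 made up most of the D cyclin transcripts. Its share of the summed D cyclin level per kilobase was 78.2 ± 1.41% without and 77.9 ± 2.25% with LPS (SD, n = 5), with 16.7 ± 1.37% and 16.4 ± 1.77% for Ccnd1 and 5.15 ± 0.444% and 5.69 ± 0.949% for Ccnd3. Within single libraries Ccnd2 exceeded Ccnd1 per kilobase by 4.28 to 5.91 times and Ccnd3 by 10.6 to 17.3 times. These shares and ratios rest on the merged exon lengths. In CPM, without division by length, untreated means were 648 for Ccnd2, 69.1 for Ccnd1 and 39.6 for Ccnd3.

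Ccnd2 (ENSMUSG00000000184, chr6:127125162-127152193, minus strand; this and the gene positions that follow are on GRCm38 in GENCODE M21) encodes cyclin D2. It stood at 660.1, 714, 654, 641 and 569.9 CPM in untreated libraries 1 to 5 and at 627, 658, 591, 553 and 489 CPM in LPS libraries 6 to 10. The lowest values of the 10 were those of LPS 9 and LPS 10 and the highest that of untreated 2, while LPS 6, LPS 7 and LPS 8 lay within the untreated range. LPS against untreated gave a log2 fold change of -0.15 ± 0.09 (SE; 95% interval -0.34 to 0.03; edgeR adjusted p = 0.454). It was -0.09 without LPS 10 and -0.08 ± 0.17 (SE) with the ductal list mean as a covariate.

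Ccnd1 (ENSMUSG00000070348, chr7:144929931-144939925, minus strand) encodes cyclin D1, which growth factor signals induce in many cell types. Its levels were 61.5, 82.3, 64.3, 71.0 and 66.6 CPM in untreated libraries 1 to 5 and 53.1, 76.3, 57.4, 63.9 and 55.7 CPM in LPS libraries 6 to 10. LPS 6, LPS 8 and LPS 10 lay under all untreated ones, and LPS 7 was the second highest of the 10. On the log2 scale the fold change was -0.17 ± 0.10 (SE; 95% interval -0.40 to 0.05; adjusted p = 0.491), and it ran from -0.27 without LPS 7 to -0.10 without untreated 2 (adjusted p = 0.172 and 0.778). With the endothelial list mean as a covariate it was 0.0014 ± 0.11 and with the ductal list mean 0.18 ± 0.18 (SE), so its sign changed with these covariates. It stayed under 0 in all 10 fits that left out 1 library. The ductal sums of the groups barely overlapped, so this covariate and LPS are hard to tell apart in any such fit. The part of these cell types in the value was not tested further. Of the exon bases of Ccnd1, 1100 of 4709 overlap a gene on the opposite strand, and the use of strand in the counting is not given in the sources used here. Smaller overlaps of this kind exist for Ccnd2 (368 and 372 of 9409 bases, with separate genes) and Ccnd3 (361 of 8775). Cdk6 (368 of 13989) and Cdkn1a (273 of 3553) have them too. When libraries were blocked by their place in the numbering (1 with 6 up to 5 with 10), a choice made after seeing the data for which no label gives a pairing, Ccnd1 and Ccnd2 were both called lower in edgeR (-0.18 with adjusted p = 0.0153, and -0.15 with adjusted p = 0.0182), in a fit that called 15.4% of all genes and 6.99% as lower.

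Ccnd3 (ENSMUSG00000034165, chr17:47505051-47599691, plus strand) encodes cyclin D3. Its levels were 38.8, 38.6, 41.2, 39.6 and 39.7 CPM in untreated libraries 1 to 5 and 34.2, 39.4, 42.2, 37.5 and 43.0 CPM in LPS libraries 6 to 10. The untreated libraries lay close together, with a coefficient of variation of 2.60%, and the LPS libraries (9.14%) spread to both sides of them. In edgeR the log2 fold change was -0.01 ± 0.07 (SE; 95% interval -0.16 to 0.14; adjusted p = 0.966), with a sign that changed between fits.

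Ratios between the D cyclins within a library, which do not depend on the library size, overlapped as well. The log2 ratio of Ccnd1 to Ccnd2 in CPM was -3.23 ± 0.15 without and -3.26 ± 0.20 with LPS (SD, n = 5). That of Ccnd3 to Ccnd2 was -4.03 ± 0.13 and -3.89 ± 0.26.

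Of the kinases, Cdk4 (ENSMUSG00000006728, chr10:127063534-127067920, plus strand) was far more abundant than Cdk6 (ENSMUSG00000040274, chr5:3341485-3531008, plus strand). Per kilobase of merged exons it exceeded Cdk6 by 181 ± 30.3 times without LPS and by 161 ± 25.3 times with it (SD, n = 5). Promoter sequences were at hand for 7 of the 10 genes, as 11 entries of 300 bases from 250 before to 50 after an annotated start (RefSeq, GRCm38.p6). The Cdk4 promoter is shown because it holds 4 copies of CACGTG, the E-box bound by MYC and related factors, and MYC is a known activator of Cdk4. It lies at chr10:127063285-127063584 on the plus strand, with the E-boxes in capitals, the first of them at position -172 from the start.
Cdk4: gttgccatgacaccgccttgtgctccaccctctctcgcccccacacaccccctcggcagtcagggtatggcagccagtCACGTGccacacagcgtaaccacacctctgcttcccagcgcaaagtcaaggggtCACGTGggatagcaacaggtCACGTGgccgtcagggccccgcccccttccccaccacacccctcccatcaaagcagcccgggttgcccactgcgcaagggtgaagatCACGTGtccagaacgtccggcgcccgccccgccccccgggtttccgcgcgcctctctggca

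The motif CACGTG reads the same on both strands and its copies do not overlap each other. It was present in 7.15% of 32851 promoters of this length, and 4 or more copies were present in 8 of them (0.0244%). The Cdk6 promoter and 1 of 2 Cdkn2c promoters held 1 copy each. A match is a description of the letters and not a site.

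Cdk4 stood at 149, 150.25, 147, 152 and 184 CPM in untreated libraries 1 to 5 and at 147, 149, 166, 161 and 186 CPM in LPS libraries 6 to 10. Most libraries lay close together, with untreated 5 and LPS 10 above the others. The log2 fold change was 0.05 ± 0.08 (SE; 95% interval -0.13 to 0.22; adjusted p = 0.853), with 0.11 without untreated 5 and -0.0072 without LPS 10. Myc itself, named after its value was seen, had 18.7 ± 2.52 and 24.8 ± 3.02 CPM (log2 fold change 0.41 ± 0.11, adjusted p = 0.0569) and was not called. Its groups did not overlap, beside 5.71% of all tested genes. A link between the levels of Myc and Cdk4 was not tested. Of the exon bases of Cdk4, 641 of 3249 are shared with Tspan31 on the opposite strand.

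Cdk6 levels were 4.24, 3.77, 2.79, 3.40 and 4.97 CPM in untreated libraries 1 to 5 and 4.34, 3.22, 5.23, 4.67 and 4.64 CPM in LPS libraries 6 to 10, from 66 to 121 counts per library. The groups overlapped over most of their range. LPS against untreated gave a log2 fold change of 0.20 ± 0.18 (SE; 95% interval -0.19 to 0.59; adjusted p = 0.677). It was 0.11 without untreated 3, 0.31 without untreated 5 and 0.07 with the endothelial list mean as a covariate.

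**Figure D3:**
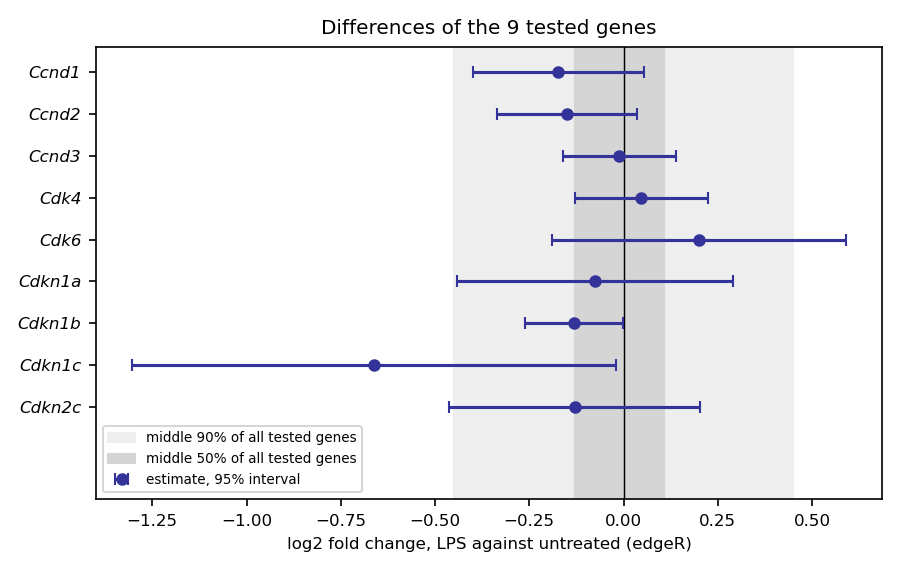
Log2 fold change of LPS against untreated (horizontal axis) for the 9 tested genes, with 95% intervals from edgeR, over bands that hold the middle 50% and 90% of all tested genes. Only Cdkn1c lies outside the 90% band, with the widest interval, and the D cyclins and Cdk4 lie within it.

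Of the CIP/KIP inhibitors, Cdkn1a and Cdkn1b were the abundant ones and Cdkn1c was rare. Cdkn1a (ENSMUSG00000023067, chr17:29090976-29100727, plus strand) encodes p21, a classical target of p53. Its upstream start is shown because the bases before it hold a p53-like motif, written as CATG, any 6 bases and CATG, set in capitals. The sequence lies at chr17:29090729-29091028 on the plus strand, with the match at position -48 from that start.
Cdkn1a, upstream start: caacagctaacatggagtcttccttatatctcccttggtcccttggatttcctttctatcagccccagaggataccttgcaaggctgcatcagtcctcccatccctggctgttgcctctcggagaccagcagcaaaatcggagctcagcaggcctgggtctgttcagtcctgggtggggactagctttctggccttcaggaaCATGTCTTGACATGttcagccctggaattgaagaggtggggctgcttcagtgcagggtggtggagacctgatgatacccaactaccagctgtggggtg

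This motif, the same on both strands and overlapping no CACGTG, was present in 0.712% of all promoters and in 1 of the 11 entries here. The other Cdkn1a start lacks it within its 300 bases. A STAT-like motif (TTCNNNGAA), an interferon response motif (GAAA, any 2 bases, GAAA), an NF-kB motif (GGGA, any base, TTTCC) and the E2F motifs TTTGGCGC and TTTCGCGC were searched on both strands. They were present in 8.3%, 3.44%, 0.411%, 0.514% and 0.323% of all promoters and in none of the 11, which says only that these letters are not in these windows.

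Cdkn1a stood at 105, 73.5, 72.0, 67.6 and 74.8 CPM in untreated libraries 1 to 5 and at 114, 66.1, 67.5, 59.3 and 65.7 CPM in LPS libraries 6 to 10. One library in each group, untreated 1 and LPS 6, stood far above the other 4. On the log2 scale the fold change was -0.08 ± 0.17 (SE; 95% interval -0.44 to 0.29; adjusted p = 0.895). It was 0.05 without untreated 1, -0.29 without LPS 6 and -0.15 without both (adjusted p = 0.919, 0.236 and 0.274), and the other 8 fits that left out 1 library kept it under 0. In those 2 libraries the share of reads outside genes was the lowest of each group (10.3% and 8.84%, beside 12.5% to 12.9% and 10.7% to 12.1% in the others), as was the endothelial sum (12.4 and 10.4 CPM). With the endothelial list mean as a covariate the log2 fold change of Cdkn1a was -0.39 ± 0.17, and with the ductal list mean -0.80 ± 0.25 (SE; edgeR adjusted p = 0.529 and 0.459). The part of the reads outside genes in the Cdkn1a level was not tested.

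Cdkn1b (ENSMUSG00000003031, chr6:134920401-134925513, plus strand) encodes p27, which restrains beta cell proliferation in mice. Its levels were 99.7, 86.9, 88.5, 94.0 and 95.3 CPM in untreated libraries 1 to 5 and 92.4, 82.2, 84.5, 84.4 and 80.4 CPM in LPS libraries 6 to 10. LPS 7, LPS 8, LPS 9 and LPS 10 lay under all untreated libraries, and LPS 6 lay among them. The spread was small, with coefficients of variation of 5.62% and 5.41%. In edgeR the log2 fold change was -0.13 ± 0.06 (SE; 95% interval -0.26 to -0.00086; unadjusted p = 0.0487, adjusted p = 0.322), and it was -0.27 ± 0.11 with the ductal list mean as a covariate. The log2 ratio of Cdkn1a to Cdkn1b was -0.26 ± 0.20 without and -0.23 ± 0.31 with LPS (SD, n = 5).

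Cdkn1c (ENSMUSG00000037664, chr7:143458339-143461050, minus strand) encodes p57 and is imprinted, with expression from the maternal copy. It was rare, with 26, 45, 38, 29 and 36 counts in untreated libraries 1 to 5 and 15, 16, 34, 13 and 22 counts in LPS libraries 6 to 10. In CPM these were 1.01, 1.82, 1.61, 1.25 and 1.48 against 0.732, 0.579, 1.62, 0.698 and 0.912. All LPS libraries but LPS 8 lay under the untreated range, and LPS 8 was the second highest of the 10. The log2 fold change of -0.66 ± 0.30 (SE; 95% interval -1.30 to -0.02; unadjusted p = 0.0442, adjusted p = 0.308 in edgeR) lay among the lowest 1.93% of all tested genes. Without LPS 8 it was -0.98 (adjusted p = 0.0719), the nearest to the threshold of the 10 fits that left out 1 library, with the others from -0.77 to -0.53. With the endothelial list mean as a covariate the value was -0.39 ± 0.38 and with the ductal list mean -0.01 ± 0.60 (SE), and the part of these cells in it was not tested further. An antisense gene covers 625 of its 2039 exon bases.

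The INK4 genes were low. Cdkn2c (ENSMUSG00000028551, chr4:109660876-109667189, minus strand), which encodes p18, stood at 6.34, 8.07, 5.45, 5.90 and 6.04 CPM in untreated libraries 1 to 5 and at 5.52, 6.19, 6.18, 4.14 and 6.96 CPM in LPS libraries 6 to 10. LPS 9 had the lowest and untreated 2 the highest level, and the others were mixed. The log2 fold change was -0.13 ± 0.15 (SE; 95% interval -0.46 to 0.20; adjusted p = 0.769). It was -0.03 without untreated 2 and also without LPS 9, and -0.20 without LPS 10.

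Cdkn2a (ENSMUSG00000044303, chr4:89274471-89294653, minus strand) gives rise to a pair of proteins from separate first exons, p19Arf from the upstream start and p16Ink4a from the downstream one. The tables count both under 1 identifier, so their transcripts cannot be told apart here. Both starts are shown for that reason, at chr4:89294570-89294869 and chr4:89282143-89282442 on the minus strand, read 5′ to 3′ along the gene, with no capitals since neither held any of the motifs searched.
Cdkn2a, upstream start: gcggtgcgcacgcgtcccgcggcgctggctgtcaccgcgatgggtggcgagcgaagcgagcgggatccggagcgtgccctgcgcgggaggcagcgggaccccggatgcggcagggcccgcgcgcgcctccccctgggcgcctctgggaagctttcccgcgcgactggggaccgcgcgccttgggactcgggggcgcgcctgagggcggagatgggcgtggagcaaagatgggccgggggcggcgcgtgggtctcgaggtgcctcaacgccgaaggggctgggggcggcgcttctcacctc
Cdkn2a, downstream start: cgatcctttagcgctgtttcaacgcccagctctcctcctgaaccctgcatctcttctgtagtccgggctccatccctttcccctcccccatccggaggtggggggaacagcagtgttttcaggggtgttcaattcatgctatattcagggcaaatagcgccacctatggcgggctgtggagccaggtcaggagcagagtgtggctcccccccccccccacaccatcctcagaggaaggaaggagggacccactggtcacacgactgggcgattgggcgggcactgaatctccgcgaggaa

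The upstream sequence had 77% and the downstream one 60.3% of G and C. Cdkn2a had 7, 7, 7, 8 and 12 counts in untreated libraries 1 to 5 and 7, 4, 11, 9 and 13 counts in LPS libraries 6 to 10, 41 and 44 in all. These are 0.338 ± 0.0909 and 0.406 ± 0.166 CPM (SD, n = 5), with overlapping groups. In the fit without a filter on low counts its log2 fold change was 0.25 ± 0.47 (SE; edgeR adjusted p = 0.858).

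**Figure D4:**
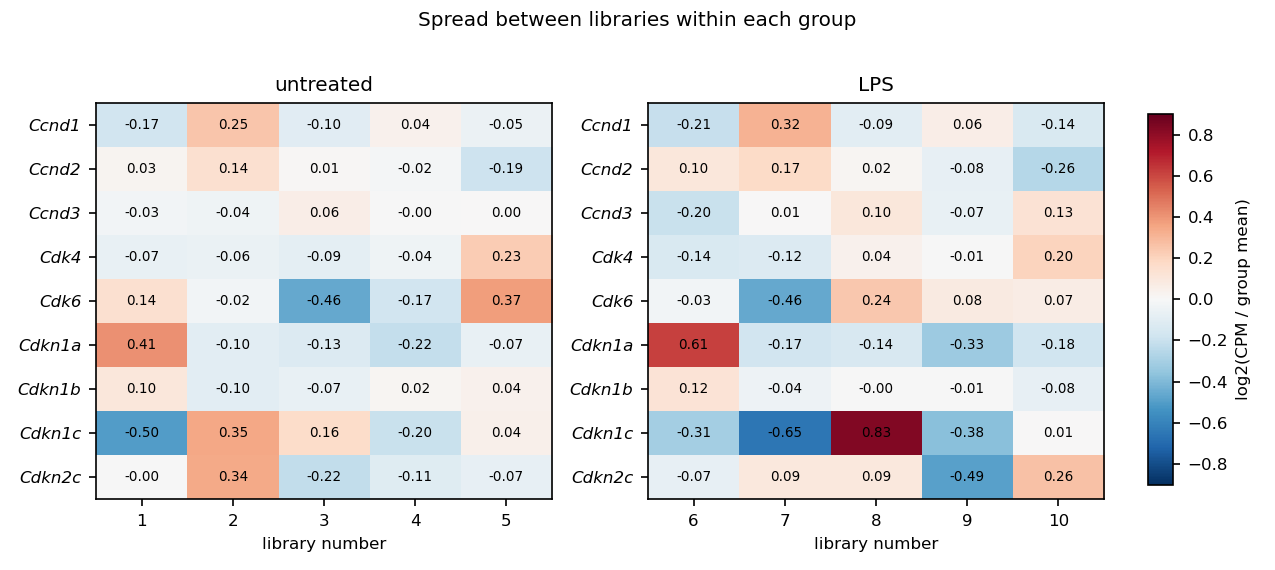
Log2 ratio of each library to its group mean in CPM (colour and printed value) for the 9 tested genes, untreated libraries on the left and LPS libraries on the right. Cdkn1a reaches 0.41 in untreated 1 and 0.61 in LPS 6, and Cdkn1c runs from -0.65 to 0.83 among LPS libraries.

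Among the 9 tested genes relative spread within groups was widest for Cdkn1c, with coefficients of variation of 22.0% and 45.6% in untreated and LPS libraries, beside 26.9% and 40.8% for the untested Cdkn2a. Cdkn1c rests on 13 to 45 and Cdkn2a on 4 to 13 counts per library, so counting noise widens their spread. Cdkn1a had 18.9% and 29.9%, beside 8.00% and 11.3% for Ccnd2 and 9.80% and 9.61% for Cdk4. These 3 genes had at least 1104, 10301 and 2998 counts per library. The highest library stood at the same place of the numbering in both groups (1 and 6, 2 and 7, and so on) for 6 of the 10 genes, namely Ccnd1, Ccnd2, Cdk4, Cdkn1a, Cdkn1b and Cdkn2a (60%, beside 41.6% of all tested genes). The lowest library did so for 3 of the 10, Ccnd1, Ccnd2 and Cdkn1a (30%, beside 40.6% of all tested genes).

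Around these genes, 107 others of the G1 pathway were listed, of which 103 were tested and 2 were called, both higher in LPS (1.94%, beside 3.77% of all tested genes called in either direction and 2.84% called higher). At an unadjusted p under 0.05 there were 17 (16.5%, beside 15.3%). The median log2 fold change was 0.01, beside -0.01 over all tested genes. Named after their values were seen, the uncalled genes nearest the threshold were Sesn2 (0.20, edgeR adjusted p = 0.0535) and Tfdp2 (-0.30, 0.0540). Myc and Fbxw7 (0.24, 0.0743) came next. They are among 6 of the 103 whose groups did not overlap, beside 5.71% of all tested genes.

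Gdf15, a stress-induced cytokine gene in the list of p53 and its targets, rose in LPS libraries. It stood at 7.35, 5.43, 4.48, 4.43 and 6.69 CPM in untreated libraries 1 to 5 and at 11.7, 10.4, 7.41, 8.38 and 9.90 CPM in LPS libraries 6 to 10, with every LPS library above every untreated one. LPS against untreated gave a log2 fold change of 0.75 ± 0.17 (SE; quasi-likelihood adjusted p = 0.0243). It was the only one called of 19 genes of that list, 12 of which had values above 0. Trp53 itself, named after its value was seen, had a log2 fold change of 0.25 (adjusted p = 0.218). The call of Gdf15 was lost in 6 of the 10 fits that left out 1 library (adjusted p from 0.0128 to 0.0780), namely those without untreated 2, 3 or 4 or LPS 6, 7 or 10.

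Cks1b, which encodes a partner of the ubiquitin ligase subunit SKP2 in the degradation of p27, was the other gene that rose. It stood at 14.1, 19.4, 17.5, 18.7 and 15.9 CPM in untreated libraries 1 to 5 and at 19.1, 22.3, 24.0, 25.04 and 26.1 CPM in LPS libraries 6 to 10. Only LPS 6 lay within the untreated range. On the log2 scale the fold change was 0.45 ± 0.11 (SE; edgeR adjusted p = 0.0332), and the call was lost without untreated 1, 3 or 5 or LPS 7, 8, 9 or 10 (adjusted p from 0.0133 to 0.0931 over the 10 fits). It was also lost with upper-quartile factors (0.44, adjusted p = 0.0549) and with 1 surrogate variable (0.46, adjusted p = 0.0821). It was the only one called of 15 genes of the turnover of D cyclins and p27. Neither gene was called with the endothelial, macrophage or ductal list mean as a covariate. Those fits called 1.21%, 2.01% and 0.144% of all tested genes. The log2 fold changes were then 0.48, 0.75 and 0.21 for Gdf15 (edgeR adjusted p = 0.415, 0.101 and 0.971) and 0.59, 0.39 and 0.78 for Cks1b (adjusted p = 0.0572, 0.166 and 0.218).

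No gene was called in the other lists. Of 13 genes of the RB and E2F family, 9 had values under 0 with a median of -0.12. Its most abundant members were E2f4 (65.1 ± 1.497 and 69.9 ± 5.25 CPM; SD, n = 5) and Rb1, the retinoblastoma gene (57.7 ± 4.90 and 50.0 ± 6.30 CPM, log2 fold change -0.21, adjusted p = 0.287). Of 22 tested genes of S phase and mitosis 11 lay above and 11 under 0. Their most abundant were the DNA polymerase clamp gene Pcna (34.4 ± 4.99 and 29.4 ± 2.96 CPM, log2 fold change -0.23, adjusted p = 0.320) and the ribonucleotide reductase gene Rrm1 (30.1 ± 3.81 and 28.6 ± 1.70 CPM). The proliferation marker Mki67, named after its value was seen, was at 7.27 ± 2.41 and 5.33 ± 1.07 CPM (log2 fold change -0.45, adjusted p = 0.347).

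Among 8 genes of cyclins E and A, CDK2 and the CDK-activating kinase, the most abundant were the phosphatase gene Cdc25a (29.6 ± 2.85 and 31.1 ± 2.20 CPM; SD, n = 5) and Ccnh (22.3 ± 1.37 and 20.4 ± 1.13 CPM). The other INK4 genes, Cdkn2b (9.26 ± 1.91 and 10.6 ± 3.72 CPM) and Cdkn2d (9.16 ± 0.822 and 8.87 ± 0.498 CPM), were at 0.19 (adjusted p = 0.752) and -0.04 (adjusted p = 0.891) on the log2 scale. Of 24 tested upstream regulators of these genes 11 lay above and 13 under 0. Ctnnb1, which encodes beta-catenin, was among the most abundant (511 ± 59.6 and 584 ± 92.9 CPM). Prlr, the prolactin receptor gene, named after its value was seen, had a log2 fold change of -0.39 (adjusted p = 0.103).

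**Figure D5:**
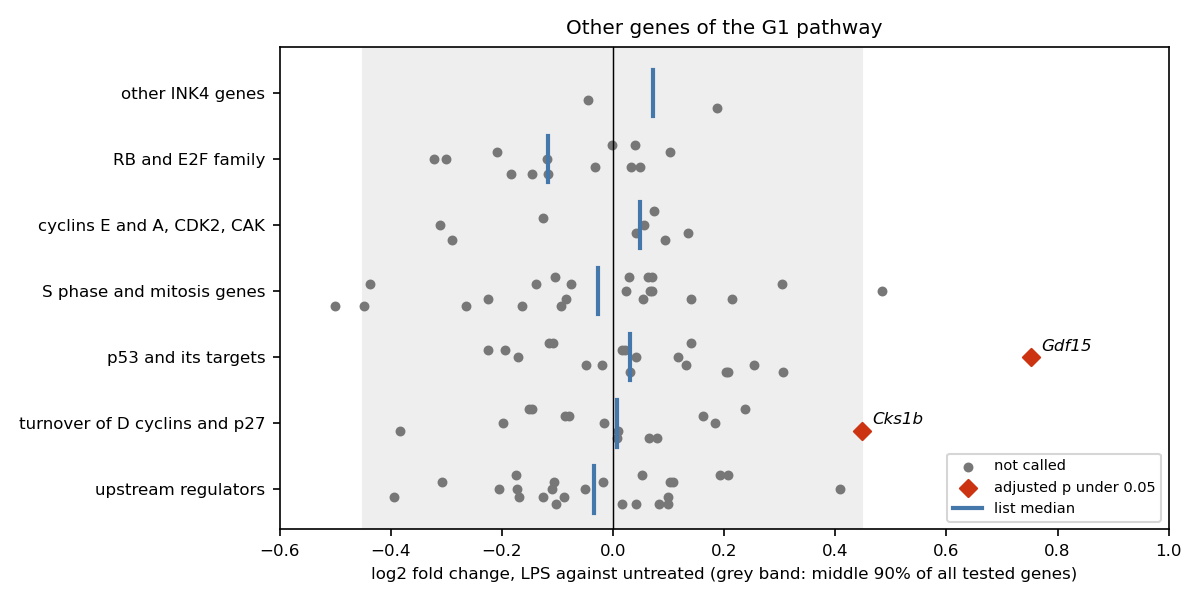
Log2 fold change of LPS against untreated (horizontal axis) for the 103 tested genes of 7 lists around the G1 genes, one point per gene, with called genes as red diamonds, list medians as blue bars and the middle 90% of all tested genes as a grey band. Gdf15 (0.75) and Cks1b (0.45) are the called genes, and the list medians lie between -0.12 and 0.07.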

How the data were processed

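RNA-seq libraries of sorted beta cells were analysed, 5 untreated and 5 LPS. The values are raw counts per Ensembl gene, deposited by the authors as 1 table per library. Per the submitters' processing notes, the tools include STAR and HTSeq, next to FastQC, Trimmomatic, SAMtools and DESeq2, with GRCm39 as the build. Neither versions, annotation nor strand setting is given in the sources used here. The 5 closing rows that name no gene were left out (reads outside genes 8.84% to 12.9% of each table). Of 56748 identifiers 52073 matched a symbol. Libraries of a group differed beyond sampling noise (chi-square per gene at least 6.14). Each counted as 1 replicate, though that difference cannot show whether they came from separate animals or pools.

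Counts were tested in R 4.3.3 with edgeR 4.0.16 (filterByExpr with minimum count 10 and total 15, TMM, quasi-likelihood F test), with Benjamini-Hochberg adjustment over 15942 genes; CPM values are TMM-normalised. The scripts were tested on simulated data. Exon lengths (all annotated exons of a gene merged) came from GENCODE M21 and promoters from RefSeq, both on GRCm38, and no coordinates of the counts were used. For marker sums an exact permutation test (two-sided, smallest possible p 0.00794) was used. DESeq2 1.42.0, limma 3.58.1, sva 3.50.0, other scalings, filters, covariates, thinning and leaving out each library were alternatives. Figures used Python 3.11.15 and matplotlib 3.10.9.

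The genes and lists were chosen with earlier results of these data known. Named from each pathway list were up to 3 called genes or, with none called, the 2 most abundant; other names are marked, and 1 gene under this rule is not reported here. The rule for genes of similar pattern applied to called genes of the 10, of which there were none.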

Additional observations from a re-analysis of the deposited data

Results flagged for a closer look

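In 3 cases a library stood apart from the other 4 of its group by more than Dixon's 95% critical value, of 20 groups of values checked; chance flags about 1 in 20. Cdk4 was at 184 CPM in untreated 5, with the next library at 152 CPM. Cdkn1a was at 105 CPM in untreated 1, with the next at 74.8 CPM, and at 114 CPM in LPS 6, with the next at 67.5 CPM.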

How the results depend on the processing

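No pairing could be taken from the labels, because the groups share no replicate number. The block by place in the numbering given here rests on the order of the numbers alone. On the second axis of a principal component analysis (18.9% of the variance), libraries of both groups fell in the order of their numbers. Values ran from 24.5 to -24.2 over untreated 1 to 5 and from 28.2 to -36.3 over LPS 6 to 10. Whether libraries were handled in pairs is not given in the sources used here and was not tested. None of the 9 tested genes was called under any of the 13 planned settings or in the 10 fits that left out 1 library (0 to 0), nor was Cdkn2a in the edgeR fit without a filter. Genes called over all tested numbered 938 with DESeq2 (2.93%) and 994 with limma-voom and quality weights (6.24%), beside 601 (3.77%). They numbered 641 without a filter (2%), 601 with a filter at 1 CPM in 5 libraries (4.32%) and 407 with the surrogate variable (2.55%). With the endothelial, macrophage and ductal list means as covariates they were 193, 321 and 23 (1.21%, 2.01% and 0.144%). Without single libraries they were 401 to 624 (2.48% to 3.86%). Of the 107 pathway genes listed, 2 were called in the main fit and 3 with a filter at 1 CPM in 5 libraries. There were 4 called without a filter, 7 with DESeq2 and 7 with quality weights. With each of the 3 covariates 0 were called, with the surrogate variable 1 and without single libraries 0 to 3. Blocking by place in the numbering (1 with 6 to 5 with 10) was added after seeing the data without support in the labels. It called 2450 genes (15.4% of those tested), 20 pathway genes and 2 of the 10, Ccnd1 (-0.18) and Ccnd2 (-0.15). Small values changed sign. For Ccnd3 they became 5.07e-05 when thinned, 0.0031, 0.0045 and 0.087 with the endothelial, macrophage and ductal covariates, 0.026 with the surrogate variable and 0.028 without both untreated 1 and LPS 6; without single libraries they ran from -0.045 to 0.028, above 0 without untreated 3 (0.0032), LPS 6 and LPS 9 (0.0048). Ccnd1 became 0.0014 and 0.18 with the endothelial and ductal covariates. Without single libraries Cdkn1a ran from -0.29 (LPS 6) to 0.050 (untreated 1) and Cdk4 from -0.0072 (LPS 10) to 0.11 (untreated 5). The cause of these changes was not tested. Cdkn2a and Cdkn1c rest on 4 to 45 counts per library.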

Other observations

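The labels pair no libraries. Set against each other in the order of the numbering, LPS libraries were lower at all 5 places for Ccnd1, Ccnd2 and Cdkn1b, beside 12.4% of all tested genes, and none of the 10 was higher at all 5, beside 13%. For Ccnd1 the places read 61.5 and 53.1, 82.3 and 76.3, 64.3 and 57.4, 71.0 and 63.9, and 66.6 and 55.7 CPM. Cdkn1a was lower at 4 places and higher at 1, and Cdk4 lower at 2 and higher at 3.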
